A study of Mus musculus with 76 samples.

Results

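The 39 genes described here are markers and regulators of blood and lymphatic endothelium, the cell layer that lines vessels, and they were taken from the gene table by symbol. All 39 were among the 54232 genes counted. They were followed by RNA sequencing of 3 tissues, the kidney, the heart and the visceral adipose tissue (VFAT), of male Fox Chase SCID mice (CB17/Icr-Prkdcscid/IcrlcoCrl) that were 12 weeks old. All 5 arms carried the Prkdc scid mutation, which leaves mice without mature T and B cells. In 3 arms a partial nephrectomy (PNx) was combined with transplanted cells, labelled Lenti-adipo-NaKtide (NaKtide arm), Lenti-adipo-scrambled (Scrambled arm) or Control Cells (ControlCells arm). The other 2 arms had a partial nephrectomy and no cells (PNx arm) or a sham operation and no cells (Sham arm). NaKtide is a peptide that blocks signalling of the Na/K-ATPase through the kinase Src, and the scrambled form is its control. The labels do not state the origin of the cells, the promoter that drives the peptide, or whether each numbered library is 1 animal. The spread behind every p-value is that between libraries, part of which may be technical. Each arm had 5 samples per tissue, except the Scrambled arm of VFAT with 4.

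Endothelial cells hold to each other through adherens and tight junctions built of Cdh5, Pecam1, Esam and Cldn5, and read growth factors through the receptor kinases Kdr, Flt1, Tek, Tie1 and, in lymphatic vessels, Flt4. Transcription factors of the ETS (Erg, Fli1) and SOX (Sox7, Sox17, Sox18) families keep up this programme, and Dll4, Notch4 and Efnb2 mark arteries while Ephb4 marks veins. Capillaries differ between organs: those of heart and fat are continuous and carry Gpihbp1, which holds lipoprotein lipase at the vessel wall, while those of the kidney cortex are fenestrated and carry Plvap, the protein of the diaphragms. Several of these genes are also known from other cells: Podxl from podocytes, Prox1 from the loop of Henle and heart muscle, Cd34 from stromal progenitors of fat, Lyve1 from macrophages, Tal1 and Fli1 from blood cells, and Vwf from platelets.

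Total counts per library ran from 1241590 to 16912788 in the kidney, 2803991 to 12986214 in the heart and 5666563 to 20037187 in VFAT. Levels are given as CPM, the counts of a gene scaled to the library size that edgeR adjusts by its TMM factor. They are not scaled to the total counts above. In the VFAT Sham libraries 1 to 5 the summed level of 6 epididymal markers was 9944.2, 112.5, 4875.6, 9354.9 and 4383.1 CPM, against 0.0 to 33.1 CPM in VFAT PNx. The Heart Sham libraries 2 and 3 held 1148.0 and 3605.0 CPM of proximal tubule markers, against 9.87 to 27.6 CPM in Heart PNx. In the kidney, the mean log2 level of short genes minus that of long genes was −0.21, −0.34, 0.94, 0.78 and 0.88 in the PNx libraries 1 to 5, while Sham lay between −0.40 and −0.24. It was 0.94 and 0.96 in Kidney ControlCells 4 and 5. ControlCells 5 also had the lowest total, 1241590 counts, and 1261.8 CPM of adipocyte markers. These libraries and PNx 3, 4 and 5 are the kidney libraries in doubt below. VFAT Scrambled 2 and 3 held 4245.6 and 20417.6 CPM of pancreas acinar markers, and Scrambled 1, 2 and 4 held skeletal muscle markers from 4180.6 to 38133.1 CPM. Counts of called genes that rest on these libraries are also given without them. All 4 Scrambled libraries of VFAT hold pancreas or muscle transcripts, so Scrambled results are given without Scrambled 2 and 3 and without Scrambled 1, 2 and 4, never without all of them.

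In visceral fat, 20 of the 39 endothelial genes rose in PNx relative to Sham and none fell. Over all 17552 genes tested in VFAT, 4.83% rose and 8.18% fell, 13.0% in all (edgeR quasi-likelihood test, Benjamini-Hochberg adjusted p under 0.05, two-sided). The median log2 fold change of the 39 genes was 0.93, against 0.01 over all genes, and 36 had a higher fitted level in PNx. The fold changes ran from −0.75 for Efnb2 to 1.78 for Cldn5. In 7 genes (Aplnr, Cldn5, Emcn, Esam, Sox17, Sox18 and Tie1) every PNx library lay above every Sham library, and in none below, where 3.38% of all genes lay wholly above. These differences depend on 4 of the 5 Sham libraries. Set against Sham 2 alone, which had the fewest epididymal reads, the 39 genes had a median of 0.20, with 29 higher and 10 lower. Sham 2 is then assumed to vary like the libraries of the other arms. The SE was larger there, 0.77 against 0.43 for Cldn5, so a lost call does not by itself show a smaller difference. In whole-tissue RNA, fewer endothelial cells and less RNA per endothelial cell cannot be told apart.

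**Figure D1:**
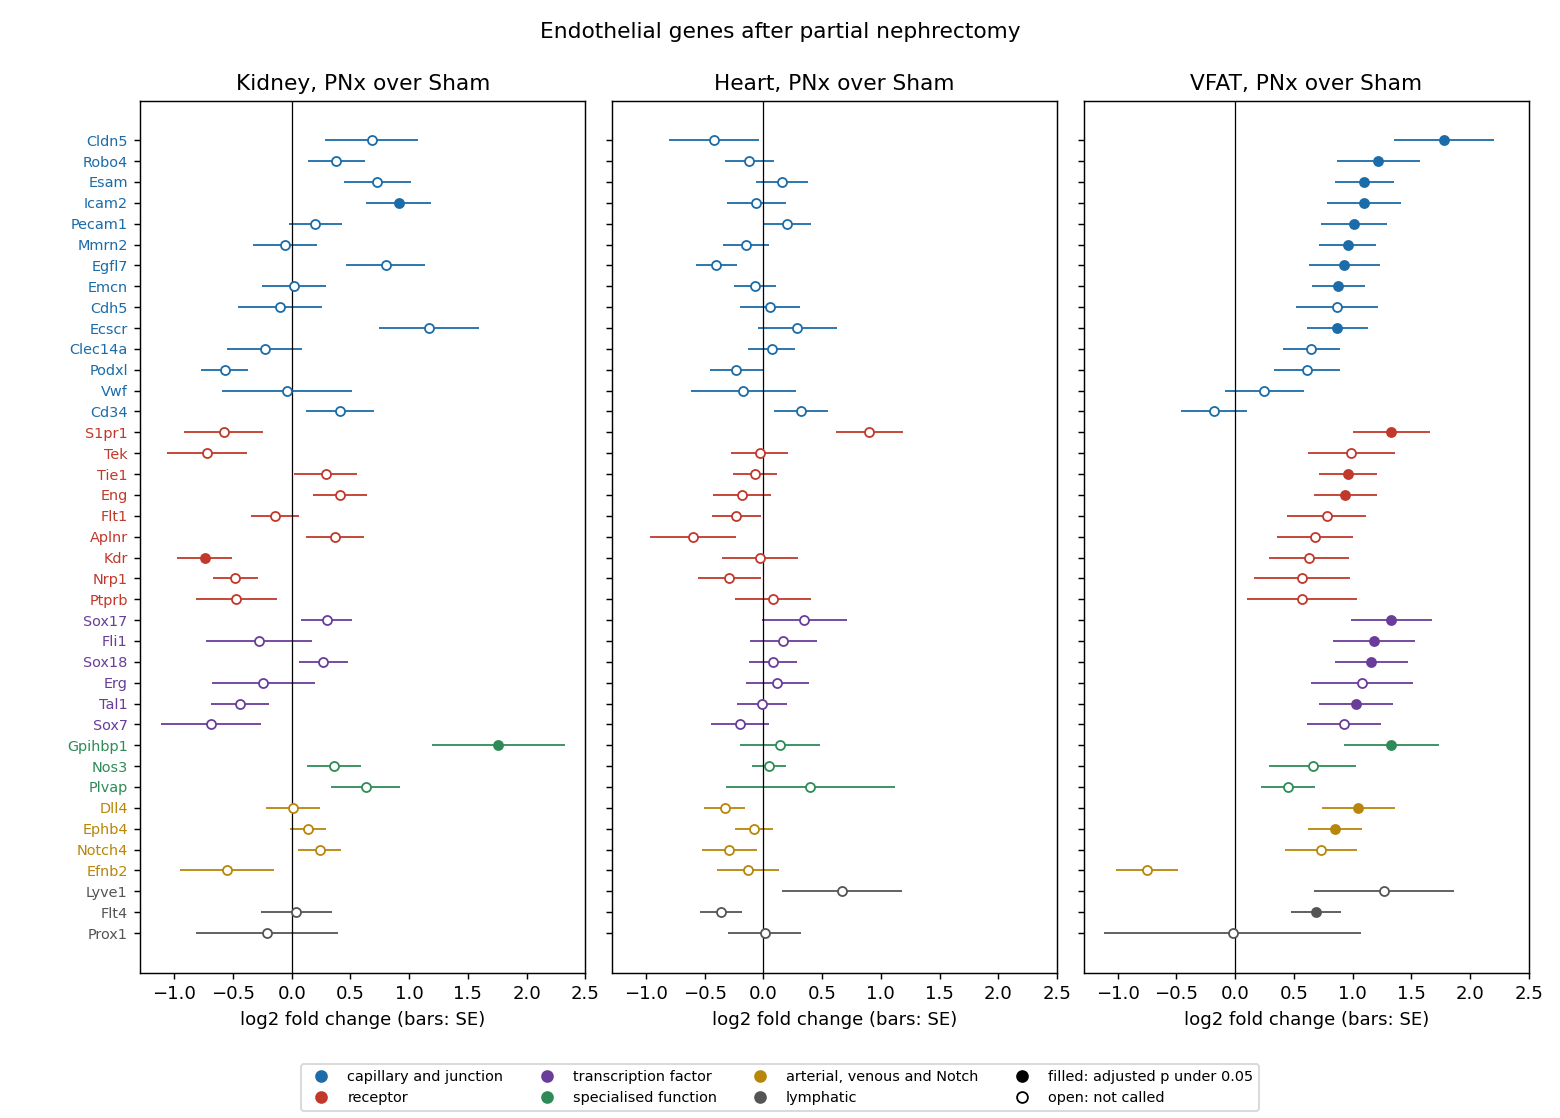
Log2 fold change of PNx over Sham for each of the 39 endothelial genes in the kidney, heart and VFAT (x axis, error bars 1 SE, edgeR), grouped and coloured by role, with filled points for an adjusted p under 0.05. In VFAT 36 of 39 points lie right of 0 and 20 are filled, against 3 filled points in the kidney and 0 in the heart.

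Among the 14 genes of capillaries and junctions, 9 rose in VFAT of PNx mice (Cldn5, Ecscr, Egfl7, Emcn, Esam, Icam2, Mmrn2, Pecam1 and Robo4), with a median over the 14 of 0.90. Esam, an adhesion molecule of tight junctions, was at 58.6, 85.2, 59.0, 64.0 and 80.8 CPM in PNx libraries 1 to 5, against 22.0, 50.5, 35.4, 17.5 and 36.9 CPM in Sham libraries 1 to 5. Its groups did not overlap, and Sham 4 was lowest (log2 fold change 1.10, SE 0.251, edgeR adjusted p = 0.00642). Cldn5, the claudin of endothelial tight junctions, was at 55.3, 104.1, 94.5, 98.5 and 83.9 CPM in PNx, against 21, 31.7, 42.2, 9.61 and 22.7 CPM in Sham. The lowest PNx library, number 1, still lay above the highest Sham library, number 3 (1.78, SE 0.425, edgeR adjusted p = 0.00862). Cldn5 also kept the largest difference when Sham 2 stood alone, 1.46, although without a call. Mmrn2, a matrix glycoprotein of the vessel wall, was at 41.4, 40.0, 50.9, 45.2 and 66.8 CPM in PNx, against 14.3, 41.4, 27.9, 14.6 and 27.3 CPM in Sham. PNx 1 and 2 lay at the level of Sham 2, and the other PNx libraries lay above all of Sham (0.96, SE 0.242, edgeR adjusted p = 0.0116).

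Emcn, the sialomucin endomucin of capillaries and veins, was at 19.4, 26.6, 21.6, 21.6 and 30.9 CPM in PNx VFAT, against 8.3, 17.0, 14.3, 9.46 and 16.3 CPM in Sham, with no overlap (0.88, SE 0.226, edgeR adjusted p = 0.0133). Pecam1, a junction protein of endothelium that leukocytes and platelets also carry, was at 128.3, 115.7, 158.6, 165.9 and 203.6 CPM in PNx, against 43.0, 125.2, 81.8, 31.3 and 102.5 CPM in Sham. Only PNx 2 lay under the highest Sham library, number 2 (1.01, SE 0.280, edgeR adjusted p = 0.021). Cdh5, the cadherin of endothelial adherens junctions, was at 172.4, 106.8, 192.5, 190.4 and 276.0 CPM in PNx, against 53.9, 170.6, 120.1, 35.7 and 131.5 CPM in Sham. It did not pass (0.87, SE 0.351, edgeR adjusted p = 0.104), and PNx 2 lay below 3 Sham libraries. Vwf, the clotting factor stored in endothelial granules, was at 24.2, 24.4, 27.7, 20.5 and 50.8 CPM in PNx, against 13.7, 44.2, 16.6, 23.6 and 26.5 CPM in Sham. The groups overlapped over most of their range (0.25, SE 0.338, edgeR adjusted p = 0.683). Cd34 measured −0.18 (SE 0.280, edgeR adjusted p = 0.721), with 119.7 ± 49.9 CPM in PNx and 135.9 ± 64.0 CPM in Sham (SD, n = 5 each).

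Of the 9 receptors, 3 rose (Eng, S1pr1 and Tie1), all 9 had a higher fitted level, and the median was 0.78. S1pr1, the receptor through which sphingosine-1-phosphate tightens the vessel barrier, was at 67.1, 36.5, 73.4, 79.8 and 87.4 CPM in PNx, against 15.6, 52.6, 25.2, 11.8 and 31.9 CPM in Sham. PNx 2 alone lay within the range of Sham (1.33, SE 0.328, edgeR adjusted p = 0.0104). Tie1, the partner of the angiopoietin receptor Tek, was at 52.8, 55.6, 60.2, 58.2 and 73.9 CPM in PNx, against 19.2, 48.9, 35.4, 16.4 and 34.9 CPM in Sham, with no overlap (0.96, SE 0.245, edgeR adjusted p = 0.0128). Kdr, the main signalling receptor of VEGF-A, was at 125.5, 50.4, 96.7, 110.8 and 144.5 CPM in PNx, against 31.9, 108.2, 73.7, 31.9 and 96.2 CPM in Sham. Its PNx 2 lay below 3 Sham libraries, and it did not pass (0.63, SE 0.343, edgeR adjusted p = 0.25). Flt1, the VEGF receptor that acts largely as a decoy, was at 72.7, 50.3, 84.8, 76.6 and 113.5 CPM in PNx, against 26.4, 83.6, 42.5, 21.1 and 58.2 CPM in Sham (0.78, SE 0.339, edgeR adjusted p = 0.136). Against Sham 2 alone the fitted differences of Kdr and Flt1 were −0.04 and −0.07.

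**Figure D2:**
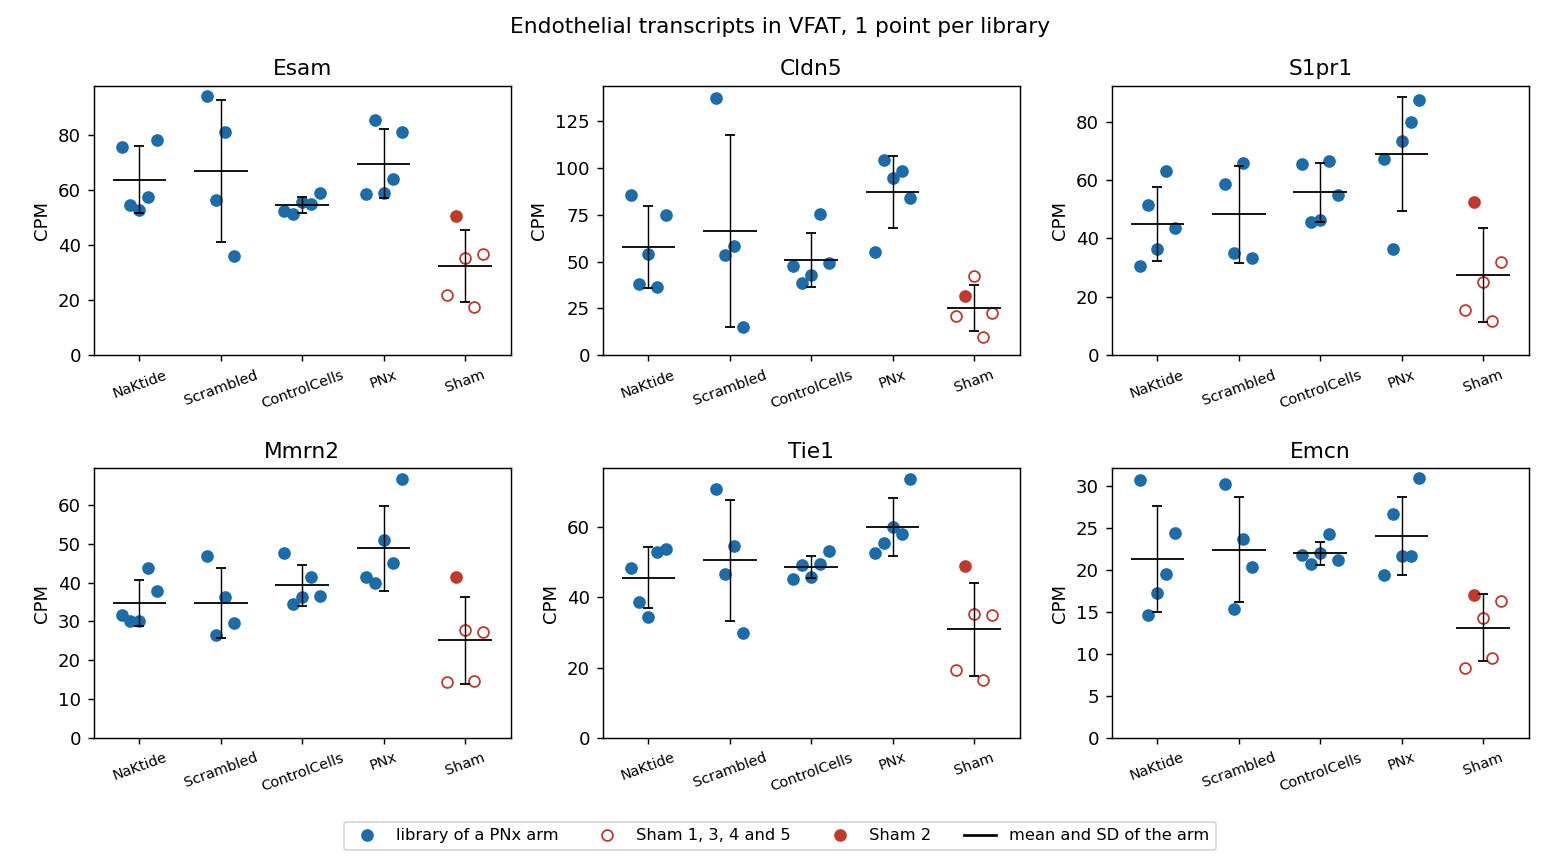
CPM in each VFAT library for Esam, Cldn5, S1pr1, Mmrn2, Tie1 and Emcn, by arm (NaKtide, Scrambled, ControlCells, PNx, Sham), with bars for the mean and SD and open points for Sham 1, 3, 4 and 5. Sham 2, the filled Sham point, lies nearest to the other arms for Esam, S1pr1, Mmrn2, Tie1 and Emcn.

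Transcription factors had the highest median of the role groups, 1.12 over 6 genes, of which Fli1, Sox17, Sox18 and Tal1 rose. Sox17, the SOX factor of arterial endothelium, measured 1.33 (SE 0.344, edgeR adjusted p = 0.0141), with 17.9 ± 5.98 CPM in PNx and 7.15 ± 3.75 CPM in Sham (SD, n = 5 each). Sox18, mutated in a human disorder of hair, lymph vessels and capillaries, measured 1.16 (SE 0.310, edgeR adjusted p = 0.017), with 50.5 ± 16.0 CPM in PNx and 22.6 ± 10.1 CPM in Sham. Erg (1.08, edgeR adjusted p = 0.101) and Sox7 (0.93, adjusted p = 0.0563) did not pass. Of the arterial, venous and Notch genes, the Notch ligand Dll4 (1.05) and the venous receptor Ephb4 (0.85) rose and Notch4 (0.73, edgeR adjusted p = 0.118) did not pass. Efnb2, the arterial ligand of Ephb4, stood apart with a lower fitted level: it was at 23.5, 10.1, 19.8, 22.0 and 24.1 CPM in PNx, against 52.2, 23.7, 22.5, 38.7 and 30.7 CPM in Sham (−0.75, SE 0.268, edgeR adjusted p = 0.0669). The groups overlapped between 22.5 and 24.1 CPM, and the highest Sham values came from libraries 1 and 4.

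Among the genes of specialised function, Gpihbp1 rose in VFAT, at 109.0, 237.2, 117.3, 90.6 and 178.3 CPM in PNx, against 27.7, 105.9, 73.5, 14.4 and 69.1 CPM in Sham. PNx 4 alone lay under Sham 2 (1.33, SE 0.406, edgeR adjusted p = 0.0338). Plvap was at 56.7, 88.5, 85.1, 95.6 and 114.7 CPM in PNx, against 107.2, 54.7, 38.2, 64.9 and 57.2 CPM in Sham (0.45, SE 0.232, edgeR adjusted p = 0.217). Here Sham 1 was the highest Sham library, whereas it was the lowest of all VFAT libraries in 12 of the 39 genes. Nos3, the endothelial nitric oxide synthase, measured 0.66 (edgeR adjusted p = 0.264). Of the lymphatic genes, Flt4, the receptor for VEGF-C, rose (0.69, SE 0.215, edgeR adjusted p = 0.0382), with 12.6 ± 1.9 CPM in PNx and 7.79 ± 3.03 CPM in Sham (SD, n = 5 each). Lyve1, a hyaluronan receptor of lymphatic capillaries and some macrophages, was at 5.1, 1.14, 15.6, 31.5 and 7.44 CPM in PNx, against 1.3, 9.64, 3.73, 3.49 and 7.03 CPM in Sham. The groups overlapped (1.27, SE 0.598, edgeR adjusted p = 0.175), and PNx 2 was the lowest of all 10. Prox1, the master factor of lymphatic identity, was near the detection limit, at 0.164, 0.0, 1.51, 0.0 and 0.261 CPM in PNx, against 0.163, 0.526, 0.22, 0.146 and 0.82 CPM in Sham, and no fold change is drawn from it.

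Levels of other cell types differed between the same VFAT libraries. All 6 epididymal markers fell in PNx by edgeR. The 7 adipocyte markers summed to 12858.7 to 15909.1 CPM in PNx, against 2767.8, 14996.7, 8225.9, 1380.5 and 6350.3 CPM in Sham 1 to 5, and none of the 7 was at 0. The 12 macrophage and leukocyte markers, none at 0, summed to 668.9 to 1440.6 CPM in PNx and 293.9 to 667.9 CPM in Sham, and 6 of the 12 rose. The 6 skeletal muscle markers summed to 10.5 to 22.9 CPM in PNx and 7.49 to 9265.0 CPM in Sham, where library 3 was highest, and all 6 fell. The mean log2(CPM + 1) of the endothelial genes was 4.97 to 5.73 in PNx, against 3.93, 5.21, 4.63, 3.75 and 4.81 in Sham 1 to 5, so that Sham 2 lay among the PNx libraries and Sham 1 and 4, which had the most epididymal reads, were lowest. The same mean minus that of the adipocyte markers was −5.42 to −4.87 in PNx, against −4.19, −5.46, −5.14, −3.48 and −4.77 in Sham, so every PNx library lay within the range of Sham on that scale. With the epididymal marker level as a covariate, edgeR called none of the 39 genes, 0 had an unadjusted p under 0.05, and the median was 0.27. That level does not overlap between PNx and Sham, so it nearly repeats the arm, and the SE was larger by a median of 1.83-fold over the 39 genes. All 20 genes had a higher fitted level there too, but only 6 of the 20 kept at least 50% of their fold change. Cldn5 measured 1.70 (SE 0.84) and Egfl7 0.84 (SE 0.59), while Pecam1 measured 0.16 (SE 0.50) and S1pr1 0.30 (SE 0.57). The setting with Sham 2 alone and the covariate were added after the libraries had been seen. The part of adipocyte, leukocyte and muscle RNA in the result was not tested.

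**Figure D3:**
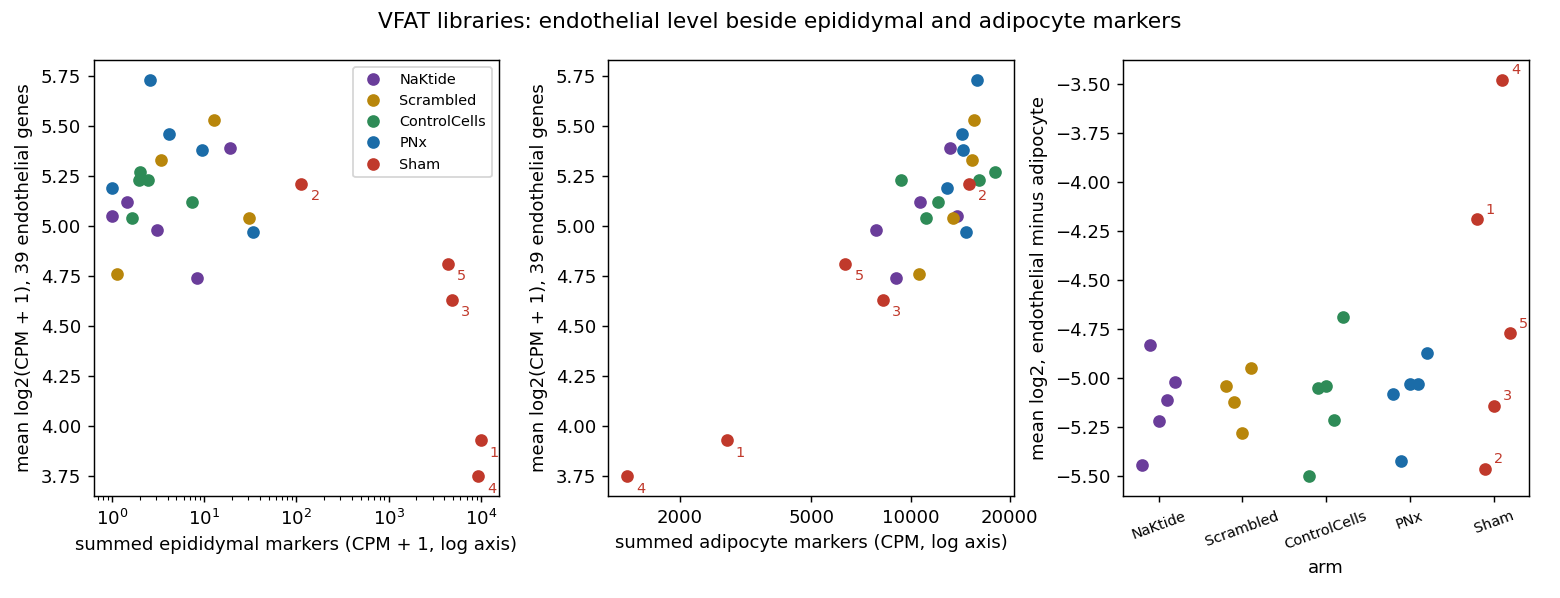
Mean log2(CPM + 1) of the 39 endothelial genes in each VFAT library against the summed CPM + 1 of epididymal markers (left) and the summed CPM of adipocyte markers (middle), both on log axes, and the endothelial mean minus the adipocyte mean by arm (right), with the Sham libraries numbered. Sham 1 and 4 combine the lowest endothelial means, 3.93 and 3.75, with epididymal sums of 9944.2 and 9354.9 CPM and adipocyte sums of 2767.8 and 1380.5 CPM.

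The VFAT count of 20 also turned on single libraries. It was 6 without PNx 5, 7 without Sham 1, 7 without Sham 4 and 30 without Sham 2, and 14 to 19 without each of the others. Esam, Cldn5, S1pr1, Mmrn2 and Tie1 were called in each of these 10 fits. With only the PNx and Sham arms in the fit, edgeR called 1. Over all 5 arms DESeq2 called 23 (22 higher and 1 lower) and voom with quality weights 30. The shares of all genes called in these alternatives are not given here.

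Promoters of 3 of the genes that rose in VFAT are shown because they hold a motif of the ETS factors, the family of Erg and Fli1. The motif searched was CAGGAAG or, on the other strand, CTTCCTG, in the 250 bases before and 50 bases after each gene start (RefSeq, GRCm38.p6). It was found in 13.3% of all 32851 promoters and in 7 of 26 promoters of the 20 endothelial genes in that table, those of Cd34, Egfl7, Emcn, Erg, Notch4 and Robo4. Of these, Cd34, Erg and Notch4 were not called in VFAT of PNx mice. Cldn5, Dll4, Eng, Ephb4, Flt4, Tal1 and Tie1 rose there and hold no match. The motif thus did not separate the genes that rose from the others. Capitals mark the motif, and all 3 genes lie on the plus strand. The stretches are Robo4 at chr9:37401722-37402021, Emcn at chr3:137340828-137341127 and Egfl7 at chr2:26580833-26581132. A match describes the letters and does not show binding.
Robo4: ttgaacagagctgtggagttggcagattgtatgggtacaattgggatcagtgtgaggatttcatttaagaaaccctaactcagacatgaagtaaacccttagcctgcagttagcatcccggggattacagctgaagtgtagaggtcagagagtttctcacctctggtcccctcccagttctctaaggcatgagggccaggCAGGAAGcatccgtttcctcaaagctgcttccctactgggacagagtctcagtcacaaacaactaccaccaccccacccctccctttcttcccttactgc
Emcn: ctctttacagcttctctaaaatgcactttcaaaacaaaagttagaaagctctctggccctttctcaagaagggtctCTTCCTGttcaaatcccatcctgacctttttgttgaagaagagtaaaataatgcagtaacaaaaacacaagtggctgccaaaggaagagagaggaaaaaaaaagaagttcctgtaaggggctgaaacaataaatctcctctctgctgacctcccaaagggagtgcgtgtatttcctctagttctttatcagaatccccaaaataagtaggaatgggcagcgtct
Egfl7: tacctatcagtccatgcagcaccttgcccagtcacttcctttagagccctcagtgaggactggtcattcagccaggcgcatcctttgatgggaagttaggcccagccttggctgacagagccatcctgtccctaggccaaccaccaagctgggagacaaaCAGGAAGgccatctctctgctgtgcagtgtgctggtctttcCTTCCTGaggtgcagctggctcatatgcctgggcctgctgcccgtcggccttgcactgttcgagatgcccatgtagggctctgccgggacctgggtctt
Robo4, a guidance receptor that stabilises vessels, holds the motif 50 bases before its start, and Emcn holds it 174 bases before. Egfl7, a secreted protein that guides vessel tubes, holds it 90 and 49 bases before this start, on opposite strands. Of its other promoters, that at chr2:26583615-26583914 holds the motif and that at chr2:26586386-26586685 does not. The SOX motif AACAAT was in 10.7% of all promoters and 3 of the 26, the KLF motif CCACCC in 31.5% and 11, and TATAAA in 13.6% and 4, each searched on both strands.

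In visceral fat of the mice that received cells, 6 to 12 of the 39 genes were called against Sham. These comparisons share the 5 Sham libraries with PNx against Sham and were added after the data had been seen. In the NaKtide arm 5 genes rose (Ecscr, Egfl7, Emcn, Esam and Flt4) and Efnb2 fell, with a median of 0.56, where 5.66% of all genes rose and 7.67% fell, 13.3% in all. In the Scrambled arm 11 rose and Efnb2 fell, with a median of 0.68, where 9.58% rose and 10.7% fell, 20.3% in all. In the ControlCells arm 5 rose (Emcn, Ephb4, S1pr1, Sox17 and Sox18) and Efnb2 fell, with a median of 0.70, where 3.5% rose and 7.35% fell, 10.8% in all. In each of the 3 arms edgeR called none of the 39 against Sham 2 alone, and none with the epididymal level as a covariate. The Scrambled count of 12 was 2 without Scrambled 2 and 3 (Ecscr and Emcn, median 0.67) and 1 without Scrambled 1, 2 and 4 (Ecscr, median 0.76). The single Scrambled library left in the second case is assumed to vary like the other arms. Shares of all genes called in these settings are not given here.

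Efnb2 was at 8.27, 19.3, 13.3, 21.3 and 18.6 CPM in NaKtide VFAT, against the 22.5 to 52.2 CPM of Sham, with no overlap (−1.05, SE 0.269, edgeR adjusted p = 0.0129). It was at 21.7, 13.1, 14.2 and 12.7 CPM in Scrambled (−1.12, SE 0.290, edgeR adjusted p = 0.0109), and at 17.4, 17.9, 18.0, 15.7 and 17.6 CPM in ControlCells (−0.95, SE 0.269, edgeR adjusted p = 0.026). All 14 libraries with cells thus lay below all 5 Sham libraries. In each arm Efnb2 was the only member wholly below Sham. Of all genes 2.07% were so in NaKtide, 5.34% in Scrambled and 2.44% in ControlCells. Flt4 was at 12.3, 16.0, 14.9, 17.5 and 13.0 CPM in NaKtide, against 4.07, 11.9, 8.02, 5.82 and 9.14 CPM in Sham, with no overlap (0.92, SE 0.215, edgeR adjusted p = 0.00737). Esam was at 75.5, 54.5, 52.7, 57.5 and 77.9 CPM in NaKtide, all above the highest Sham library at 50.5 CPM (0.97, SE 0.251, edgeR adjusted p = 0.0137). With Lyve1, 3 of the 39 genes lay wholly above Sham in NaKtide, where 3.87% of all genes did. Ecscr, a regulator of endothelial migration, was at 23.7, 11.2, 12.9, 17.2 and 15.6 CPM in NaKtide, against 5.37, 13.3, 6.92, 5.97 and 10.2 CPM in Sham, where NaKtide 2 and 3 overlapped Sham 2 (0.95, SE 0.260, edgeR adjusted p = 0.0191). Egfl7 was at 225.8, 61.2, 79.3, 98.3 and 82.1 CPM in NaKtide, against 31.2, 58.9, 71.9, 42.5 and 58.4 CPM in Sham, and Emcn at 30.6, 14.6, 17.2, 19.5 and 24.3 CPM, against the Sham values above. NaKtide 1 was highest for both genes, and only NaKtide 2 lay within the range of Sham (1.06 and 0.70, edgeR adjusted p = 0.0236 and 0.0428).

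In the Scrambled arm the lowest adjusted p belonged to Ecscr, at 23.1, 13.6, 27.3 and 16.5 CPM, all above the highest Sham library at 13.3 CPM (1.27, SE 0.273, edgeR adjusted p = 0.00339). Gpihbp1 was at 222.1, 151.7, 224.9 and 94.0 CPM in Scrambled, against the Sham values above, with Scrambled 4 under Sham 2 (1.58, SE 0.424, edgeR adjusted p = 0.0135). Icam2, an adhesion molecule of resting endothelium, was at 26.4, 21.3, 30.3 and 14.0 CPM in Scrambled, against 6.18, 15.3, 11, 3.49 and 13.7 CPM in Sham (1.21, SE 0.328, edgeR adjusted p = 0.0139). Scrambled 4, which had 8333.6 CPM of macrophage and leukocyte markers, was the lowest Scrambled library for Gpihbp1, Icam2 and Esam, and lay under Sham 2 for all 3. Esam was at 93.9, 56.3, 81.0 and 35.9 CPM (1.04, SE 0.263, edgeR adjusted p = 0.00937). Sox18 was at 78.3, 39.2, 55.3 and 33.3 CPM, all above Sham, which reached 31.2 CPM (1.19, SE 0.324, edgeR adjusted p = 0.0146). Ecscr and Sox18 were the 2 of 39 genes wholly above Sham in Scrambled, where 5.73% of all genes were. Egfl7 was at 145.1, 115.7, 123.5 and 66.4 CPM, with Scrambled 4 again lowest (1.10, SE 0.315, edgeR adjusted p = 0.019).

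In the ControlCells arm Ephb4 was at 51.1, 53.4, 68.0, 74.6 and 63.0 CPM, against 20.5, 54.9, 31.7, 22.0 and 41.5 CPM in Sham (0.86, SE 0.231, edgeR adjusted p = 0.0194). Libraries 1 and 2 lay under Sham 2. Sox17 was at 15.6, 17.1, 12.4, 18.9 and 14.5 CPM, against 4.23, 13.1, 7.69, 3.78 and 6.91 CPM in Sham, with ControlCells 3 under Sham 2 (1.14, SE 0.343, edgeR adjusted p = 0.0361). Emcn, at 21.7, 20.7, 22.0, 24.2 and 21.1 CPM, and Sox18, at 41.2, 39.5, 39.8, 65.3 and 40.5 CPM, did not overlap Sham (0.75 and 1.0, edgeR adjusted p = 0.0362 and 0.0409). With Esam and Gpihbp1, which were not called, 4 of the 39 genes lay wholly above Sham, where 3.17% of all genes did. S1pr1 was at 65.6, 45.6, 46.4, 66.6 and 55.0 CPM, with ControlCells 2 and 3 under Sham 2 (1.03, SE 0.326, edgeR adjusted p = 0.0456).

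Between the arms with partial nephrectomy, none of the 39 genes was called in VFAT by edgeR. NaKtide against PNx had 8 genes with a higher and 31 with a lower fitted level, a median of −0.33 and 2 genes with an unadjusted p under 0.05. Of all 17552 genes 652 had such a p, and edgeR called 0.0%. DESeq2 called 0 members in this comparison and limma voom with quality weights 21, all lower. The share of all genes that voom called there is not given here, so its count cannot be set against it. NaKtide against Scrambled, the contrast of the peptide with its control, had 1 gene with an unadjusted p under 0.05 and a median of −0.14, where 0.239% of all genes were higher and 2.12% lower, 2.36% in all. Of all genes 3412 had an unadjusted p under 0.05. The member with an unadjusted p under 0.05 was Flt4, at the NaKtide values above, against 11.3, 9.08, 9.63 and 8.32 CPM in Scrambled, with no overlap (0.62, SE 0.227, edgeR adjusted p = 0.122). It was 1 of 39 genes wholly above, where 2.43% of all genes were. DESeq2 and voom called 1 gene each, in opposite directions. ControlCells against PNx had a median of −0.22, with 1 member at an unadjusted p under 0.05, against 442 of all genes, and 0.0% of all genes called. Scrambled against ControlCells had a median of 0.03, with 1 such member, against 2759 of all genes. There 1.94% of all genes were higher and 0.467% lower, 2.41% in all. Neither DESeq2 nor voom called a member in these 2 comparisons. Without Scrambled 2 and 3, and without Scrambled 1, 2 and 4, edgeR called 0 members in both comparisons that use the Scrambled arm.

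In the kidney, the operated organ, 3 of 38 endothelial genes were called in PNx against Sham: Icam2 and Gpihbp1 rose and Kdr fell. Lyve1 did not pass the filter on low counts. Over all 16307 genes 9.25% rose and 7.56% fell, 16.8% in all, a larger share than among the endothelial genes. Their median was 0.03, against 0.05 over all genes, and 10 had an unadjusted p under 0.05, as did 6885 of all 16307 genes. Icam2 was at 6.63, 5.81, 17.4, 13.3 and 7.57 CPM in PNx, against 4.07, 4.82, 5.68, 4.37 and 7.85 CPM in Sham (0.91, SE 0.280, edgeR adjusted p = 0.0372). Gpihbp1 was at 11.6, 12.4, 116.5, 25.8 and 19.3 CPM in PNx, against 6.9, 11.5, 12.1, 9.76 and 14.3 CPM in Sham (1.76, SE 0.569, edgeR adjusted p = 0.0416). For both genes PNx 3 was highest and PNx 1 and 2 lay within the range of Sham, as did PNx 5 for Icam2. Kdr was at 30.4, 31.5, 14.6, 20.1 and 12.9 CPM in PNx, against 33.9, 32.7, 34.0, 36.3 and 46.7 CPM in Sham (−0.74, SE 0.234, edgeR adjusted p = 0.0397). It was the only member whose groups did not overlap, in a tissue where 7.68% of all genes lay wholly below Sham, and its PNx 1 and 2 lay closest to Sham.

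The other widely used endothelial markers did not pass in the kidney. Pecam1 was at 57.2, 40.7, 57.1, 41.0 and 21.3 CPM in PNx, against 33.9, 37.3, 44.8, 28.4 and 44.3 CPM in Sham (0.20, edgeR adjusted p = 0.503), and Cdh5 at 33.8, 29.2, 15.6, 24.1 and 5.61 CPM in PNx, against 20.9, 24.0, 23.5, 16.5 and 31.3 CPM in Sham (−0.10, adjusted p = 0.857). Flt1 was at 33.4, 26.2, 37.9, 31.8 and 19.6 CPM in PNx, against 30.6, 28.9, 32.6, 27.3 and 45.0 CPM in Sham (−0.14, edgeR adjusted p = 0.602). PNx 5 was lowest for each of these 3 genes, and for 19 of the 38 genes tested it was the lowest of all kidney libraries. Plvap was at 149.6, 105.3, 314.5, 206.9 and 83.0 CPM in PNx, against 91.2, 111.7, 122.9, 80.4 and 149.9 CPM in Sham (0.63, SE 0.292, edgeR adjusted p = 0.106). Vwf was at 3.25, 1.6, 4.6, 1.29 and 0.561 CPM in PNx, against 1.51, 1.34, 3.39, 2.52 and 2.69 CPM in Sham, and Prox1 at 13.9, 8.21, 2.89, 4.14 and 0.841 CPM in PNx, against 9.27, 7.73, 5.96, 5.22 and 6.68 CPM in Sham (−0.04 and −0.21, edgeR adjusted p = 0.967 and 0.816). Lyve1 was at 0.0 to 0.16 CPM in PNx and 0.112 to 0.505 CPM in Sham.

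The kidney fold changes varied with gene length. Across 38 genes the fold change was lower for longer genes, at a Pearson r of −0.51 and a Spearman rho of −0.45, given as a description over genes that share the same 10 libraries. The 7 genes under 3000 bases had a median of 0.73 and all 7 had a higher fitted level, while the 11 genes of 6000 bases or more had a median of −0.14, with 4 higher. With the short-minus-long index as a covariate the medians were 0.29 and 0.28, r was −0.00 and edgeR called 0 genes, with 3 at an unadjusted p under 0.05. Without PNx 3, 4 and 5 and ControlCells 4 and 5 the medians were 0.19 and 0.12, r was −0.09 and edgeR again called 0, with 1 at an unadjusted p under 0.05. How many of all genes had such a p under these settings is not given here. Gpihbp1 then measured 0.13, Icam2 0.20 and Kdr −0.25. The index is computed from short and long genes of the same libraries, and PNx 3, 4 and 5 were the PNx libraries where it was high. A flatter slope under both settings was thus partly built in, and the part of gene length in the kidney values was not tested. PNx 3 also held 18449.8 CPM of erythrocyte and 1793.3 CPM of macrophage and leukocyte markers, the highest PNx values, where Sham ran from 1835.8 to 3193.6 and from 115.1 to 146.9 CPM. It was the highest kidney library for 14 of the 38 genes tested. The part of these markers in the result was not tested. DESeq2 called 6 members and voom 9, and the shares of all genes they called are not given here. The edgeR count was 0 without PNx 3, without PNx 4 and without Sham 1, 2, 3 or 4, and 1 without Sham 5, but 8 without PNx 1 and 9 without PNx 2. The share of all genes called in each of these fits is not given here, so the counts cannot be set against it.

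**Figure D4:**
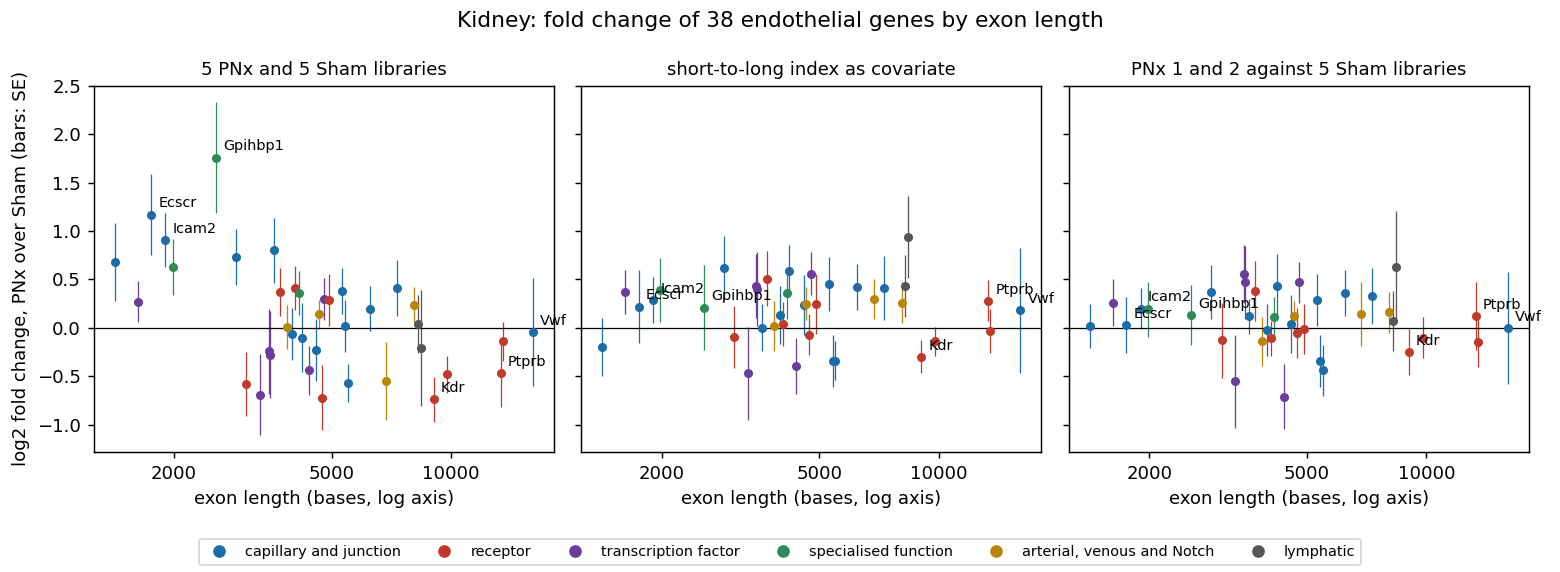
Log2 fold change of PNx over Sham in the kidney against exon length (log axis) for 38 endothelial genes, coloured by role, with all libraries (left), with the short-minus-long index as a covariate (middle) and with PNx 1 and 2 alone against Sham (right). The left plot has r = −0.51, the middle −0.00 and the right −0.09. Both settings act on the index itself, so the change in r tests no cause.

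Fold changes ran lower with length in VFAT too (r = −0.56), where the 8 genes under 3000 bases had a median of 1.13 and the 11 of 6000 bases or more 0.57. With the length index as a covariate r was again −0.56 and the VFAT count was 23. In the heart r was −0.24, with medians of 0.15 for short and −0.13 for long genes, and without Heart Sham 2 and 3 it was −0.56, with medians of 0.25 and −0.36. The part of gene length in the VFAT and heart values was not tested further.

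In the kidneys of mice with cells no endothelial gene was called by edgeR in any of 4 comparisons. NaKtide against PNx had 27 of 38 genes with a higher fitted level, a median of 0.26 and 7 at an unadjusted p under 0.05. Of all 16307 genes 3116 had such a p, and 0.0% were called. Tal1, a factor of blood and endothelial progenitors, was at 1.75, 1.88, 1.97, 1.26 and 2.34 CPM in NaKtide, against 0.39, 0.746, 0.92, 0.906 and 0.701 CPM in PNx. It was the only member with no overlap, where 0.822% of all genes lay wholly above (1.32, SE 0.238, unadjusted p = 1.05e-05, edgeR adjusted p = 0.171). NaKtide against Scrambled had 29 of 38 higher, a median of 0.22 and 0 at an unadjusted p under 0.05. Here 819 of all genes had such a p, and 0.0% were called. ControlCells against PNx had 13 of 38 higher, a median of −0.16, 4 members with such a p, against 1049 of all genes, and 0.0% called. Scrambled against ControlCells had 33 of 38 higher, a median of 0.29, 3 members with such a p, against 1753 of all genes, and 0.0123% called. Without PNx 3, 4 and 5 and ControlCells 4 and 5 edgeR called 1 member there, Egfl7, and with the length index as a covariate 1, Erg, both higher in Scrambled. The other 3 comparisons had 0 under both settings. In Scrambled against ControlCells Aplnr, the apelin receptor, was at 13.1, 11.1, 13.0, 10.7 and 14.4 CPM in Scrambled, against 9.79, 6.27, 5.64, 9.2 and 7.41 CPM in ControlCells, with no overlap (0.71, SE 0.254, edgeR adjusted p = 0.359). It was 1 of 38 genes wholly above, where 0.932% of all genes were. DESeq2 called 0 in all 4 comparisons. Voom with quality weights called 14 in NaKtide against PNx, 12 in NaKtide against Scrambled and 3 in each of the other 2. The share of all genes that voom called in these comparisons is not given here.

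In the heart, none of the 39 genes was called in PNx against Sham by edgeR, DESeq2 or voom, and 2 had an unadjusted p under 0.05. Such a p was found for 2387 of all genes. Over all 15091 genes 0.0133% rose and 0.113% fell, 0.126% in all. The median was −0.03, with fold changes from −0.60 to 0.90. S1pr1 was at 95.1, 51.1, 46.6, 54.7 and 42.1 CPM in PNx, against 34.2, 17.2, 18.6, 52.0 and 31.3 CPM in Sham (0.90, SE 0.285, edgeR adjusted p = 0.169). Of the 5 PNx libraries 3 lay under Sham 4. Egfl7 was at 114.7, 76.9, 74.5, 86.6 and 67.2 CPM in PNx, against 78.6, 147.9, 135.0, 105.3 and 88.3 CPM in Sham, where the highest were libraries 2 and 3 (−0.40, edgeR adjusted p = 0.264). Without Sham 2 and 3 the median was −0.19, with 11 genes higher and 28 lower.

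The same markers overlapped between the groups of the heart throughout. Pecam1 was at 250.7, 143.8, 135.1, 147.9 and 99.9 CPM in PNx, against 144.7, 117.3, 116.8, 197.4 and 99.9 CPM in Sham (0.20, edgeR adjusted p = 0.655), and Cdh5 at 190.5, 133.5, 171.2, 191.3 and 87.5 CPM in PNx, against 144.8, 94.5, 81.8, 283.8 and 135.9 CPM in Sham (0.06, adjusted p = 0.944). Kdr was at 71.1, 110.6, 174.4, 161.3 and 76.9 CPM in PNx, against 98.8, 68.9, 87.7, 213.5 and 136.2 CPM in Sham (−0.03), and Flt1 at 106.4, 89.3, 102.5, 77.6 and 57.7 CPM in PNx, against 81.7, 80.8, 107.7, 147.0 and 90.0 CPM in Sham (−0.23). Sham 4 was the highest Sham library for all 4 of these genes. Gpihbp1 was at 206.0, 92.3, 75.8, 68.1 and 55.9 CPM in PNx, against 49.9, 144.5, 114.1, 81.0 and 63.4 CPM in Sham (0.14), and Plvap at 42.4, 14.3, 8.3, 22.7 and 27.4 CPM in PNx, against 17.4, 21.7, 26.4, 13.7 and 10.4 CPM in Sham (0.40). PNx 1, highest for Pecam1, Gpihbp1 and Plvap, also held 1836.8 CPM of macrophage and leukocyte markers, the highest PNx value, where Sham ran from 239.4 to 364.5 CPM. Vwf was at 127.7, 72.6, 37.8, 56.5 and 61.2 CPM in PNx, against 104.6, 53.0, 73.2, 135.0 and 33.1 CPM in Sham (−0.17). Lyve1 was at 17.3, 12.9, 5.82, 7.1 and 6.17 CPM in PNx, against 8.25, 3.04, 1.82, 9.5 and 6.58 CPM in Sham (0.67), and Prox1 at 13.1, 35.7, 42.9, 34.0 and 37.5 CPM in PNx, against 42.6, 20.9, 23.2, 28.5 and 45.0 CPM in Sham (0.01), with edgeR adjusted p from 0.531 to 0.994 for Lyve1 and Prox1. None of the 4 comparisons of heart arms with cells had a called member: the medians were 0.10 for NaKtide against PNx, −0.05 for NaKtide against Scrambled, −0.01 for ControlCells against PNx and 0.19 for Scrambled against ControlCells. There edgeR called 0.0% of all genes. An unadjusted p under 0.05 was found for 1 member in NaKtide against PNx, 3 in ControlCells against PNx and 0 in the other 2. Over all genes the counts were 1249 in NaKtide against PNx and 1261 in ControlCells against PNx. They were 903 in NaKtide against Scrambled and 1098 in Scrambled against ControlCells. DESeq2 called 0 in each, and voom called 2 members in NaKtide against PNx and 0 in the others.

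The response to PNx was then compared between tissues in 1 fit over all 15 groups. Relative to the heart, the effect of PNx in VFAT was higher for 13 of 39 genes and lower for none, where 3.89% of all 19180 genes were higher, and the median difference was 0.96. Relative to VFAT, the effect in the kidney was lower for 10 and higher for none, where 3.71% of all genes were lower, with a median difference of −0.93. Relative to the heart, the effect in the kidney differed for 2, S1pr1 and Egfl7, where 12.0% of all genes differed. Without VFAT Sham 1, 3, 4 and 5 edgeR called 0 in each of the 2 differences that involve VFAT, with medians of 0.14 and −0.13. Without Heart Sham 2 and 3 it called 0 between kidney and heart and 10 between VFAT and heart. Without Kidney PNx 3, 4 and 5 it called 2 between kidney and VFAT (Emcn and Tal1, median −0.82) and 0 between kidney and heart. Shares of all genes called without these libraries are not given here. The labels do not say whether libraries of different tissues that share a number came from 1 mouse, and the fit treats them as separate.

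Cldn5 had the largest difference between VFAT and heart, 2.18 (SE 0.566, edgeR adjusted p = 0.00803). In the heart it was at 15.2, 9.5, 15, 30.7 and 10.9 CPM in PNx, against 12.8, 34.8, 33.2, 18.8 and 11.3 CPM in Sham, with the groups interleaved, unlike in VFAT above. Dll4 was at 25, 21.8, 22.7, 15.8 and 29.6 CPM in VFAT PNx, against 7.49, 16.0, 13.6, 4.22 and 14.2 CPM in VFAT Sham. Its heart levels were 17.6, 15.6, 24.2, 19.8 and 15.4 CPM in PNx, against 20.6, 22.8, 17.3, 35.7 and 19.5 CPM in Sham (difference 1.37, SE 0.352, edgeR adjusted p = 0.00729). Only PNx 4 and Sham 2 overlapped in VFAT, while most heart libraries overlapped. Robo4 was at 37.3, 48.0, 52.5, 40.4 and 71.9 CPM in VFAT PNx, against 7.97, 40.1, 25.4, 7.71 and 26.2 CPM in VFAT Sham, and at 46.0, 29.8, 30.5, 31.1 and 21.8 CPM in Heart PNx, against 28.0, 36.9, 29.5, 45.5 and 32.5 CPM in Heart Sham (difference 1.34, SE 0.396, edgeR adjusted p = 0.0212). In VFAT only PNx 1 lay under Sham 2. Egfl7 was at 68.1, 128.5, 102.3, 85.8 and 116.9 CPM in VFAT PNx, against the Sham values above (difference from the heart 1.32, SE 0.383, edgeR adjusted p = 0.0183). In VFAT it overlapped Sham only through PNx 1, while in the heart its fitted level was lower in PNx. Ephb4 was at 51.3, 51.1, 70.5, 53.5 and 80.0 CPM in VFAT PNx, and at 90.0, 55.2, 59.0, 48.6 and 48.6 CPM in Heart PNx, against 55.6, 62.4, 53.6, 89.3 and 56.9 CPM in Heart Sham (difference 0.93, SE 0.264, edgeR adjusted p = 0.0163). Mmrn2 was at 54.8, 29.9, 36.2, 36.6 and 29.4 CPM in Heart PNx, against 40.4, 33.7, 42.7, 59.9 and 30.5 CPM in Heart Sham, and differed by 1.11 between VFAT and heart (SE 0.344, edgeR adjusted p = 0.029). The other 7 called here were Emcn, Eng, Flt4, Icam2, Sox18, Tal1 and Tie1.

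Between kidney and VFAT, S1pr1 differed by −1.95 (SE 0.469, edgeR adjusted p = 0.00296). It was at 6.37, 5.76, 4.6, 2.59 and 2.38 CPM in Kidney PNx, against 5.86, 6.16, 7.14, 4.37 and 9.14 CPM in Kidney Sham, with PNx 4 and 5 under all Sham libraries. Tal1 was at 3.95, 2.39, 3.78, 5.02 and 5.22 CPM in VFAT PNx, against 1.14, 3.68, 2.31, 1.16 and 1.64 CPM in VFAT Sham, and in the kidney at the PNx values above, against 0.851, 0.896, 1.11, 0.841 and 1.29 CPM in Sham (difference −1.53, SE 0.372, edgeR adjusted p = 0.00335). Tek, the angiopoietin receptor, was at 26.4, 20.4, 7.23, 13.6 and 4.48 CPM in Kidney PNx, against 21.7, 23.7, 21.5, 21.9 and 30.9 CPM in Kidney Sham. In VFAT it was at 43.9, 17.4, 46.9, 47.9 and 61.1 CPM in PNx, against 10.7, 40.3, 25.6, 8.15 and 24.6 CPM in Sham (difference −1.73, SE 0.492, edgeR adjusted p = 0.0134). Kidney PNx 3, 4 and 5 were the lowest kidney values and VFAT Sham 1 and 4 the lowest fat values. Sox7 was at 1.43, 1.6, 2.37, 0.906 and 0.561 CPM in Kidney PNx, against 1.42, 2.35, 2.01, 3.2 and 2.46 CPM in Kidney Sham, and at 18.4, 11.7, 22.1, 17.0 and 25.2 CPM in VFAT PNx, against 6.51, 16.1, 11.3, 5.53 and 10.2 CPM in VFAT Sham (difference −1.66, SE 0.492, edgeR adjusted p = 0.0183). Podxl was at 86.1, 97.8, 72.0, 98.5 and 65.7 CPM in Kidney PNx, against 89.0, 107.2, 128.4, 143.7 and 156.6 CPM in Kidney Sham, and at 72.2, 44.8, 77.7, 88.3 and 100.7 CPM in VFAT PNx, against 23.8, 85.6, 43.9, 37.3 and 60.2 CPM in VFAT Sham (difference −1.23, SE 0.354, edgeR adjusted p = 0.0148). For both genes the kidney and fat groups overlapped in part. Mmrn2 was at 19.0, 18.1, 30.9, 14.5 and 7.01 CPM in Kidney PNx, against 15.3, 17.8, 17.0, 15 and 28.6 CPM in Kidney Sham, and differed by −1.09 (SE 0.346, edgeR adjusted p = 0.0297). Dll4, Emcn, Ephb4 and Kdr were the other 4. Between kidney and heart S1pr1 differed by −1.50 (SE 0.468, edgeR adjusted p = 0.0306) and Egfl7, at 35.5, 35.6, 108.6, 64.7 and 40.6 CPM in Kidney PNx, against 30.7, 36.5, 28.6, 29.1 and 38.4 CPM in Kidney Sham, by 1.11 (SE 0.383, adjusted p = 0.0455).

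These differences turned on single libraries. The VFAT-heart count of 13 was 2 without VFAT Sham 1, 3 without VFAT Sham 4, 4 without VFAT PNx 5, 4 without Heart Sham 4, 5, 6 and 8 without Heart PNx 5, 2 and 3, 8 without Heart Sham 2 and 23 without VFAT Sham 2. The kidney-VFAT count of 10 was 5 without VFAT Sham 1, VFAT Sham 4, VFAT PNx 5, Kidney PNx 5 or Kidney Sham 5, 6 without Kidney PNx 4 and 21 without VFAT Sham 2. The kidney-heart count of 2 ran from 0 (without Heart Sham 2, Heart Sham 3 or Kidney PNx 3, 4 or 5) to 4 (without Kidney PNx 2), and was 1 without each Kidney Sham library and without Heart PNx 2, 3, 4 or 5. The share of all genes called in each of these fits is not given here, so the counts cannot be set against it.

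In Sham mice the 3 tissues differed in the level of the endothelial genes and in which of them led. On the authors' FPKM scale, which divides by gene length, the mean levels of the 39 genes summed to 266.6 FPKM in VFAT, 212.1 FPKM in the kidney and 635.2 FPKM in the heart. Their medians were 4.94 FPKM in VFAT, 2.64 FPKM in the kidney and 11.1 FPKM in the heart. The heart had the highest mean of 36 genes, VFAT of Nos3 and Efnb2, and the kidney of Plvap. The lead of VFAT for Efnb2, 4.12 FPKM against 3.88 FPKM in the heart, rested on VFAT Sham 1 and 4 (6.32 and 4.76 FPKM): Sham 2 was at 2.96 FPKM, and the median over all arms was 2.31 FPKM in VFAT and 4.39 FPKM in the heart. With Sham 2 alone for VFAT and without Heart Sham 2 and 3, the heart led in 33 genes, VFAT in 5 (Cldn5, Gpihbp1, Nos3, Ptprb and Sox17) and the kidney in Plvap. Plvap led in the kidney at 44.4, 54.7, 58.8, 39.1 and 72.9 FPKM, followed by Podxl at 22.1 ± 4.78 FPKM and Eng, the TGF-beta co-receptor endoglin, at 17.5 ± 2.96 FPKM (SD, n = 5). In VFAT Plvap had the highest mean over the 5 Sham libraries, at 44.8, 23.6, 16.1, 27.5 and 24.5 FPKM, followed by Cdh5 at 10.6, 34.8, 24.0, 7.15 and 26.6 FPKM and Gpihbp1 at 8.98, 35.5, 24.1, 4.75 and 23.0 FPKM. VFAT Sham 1 was highest for Plvap but lower for Cdh5 and Gpihbp1 than every library except Sham 4, and neighbours in that order overlapped. The order turned on Sham 1: without it Cdh5 averaged 23.1 FPKM and Plvap 22.9 FPKM, in Sham 2 Gpihbp1 and Cdh5 lay above Plvap, and by the median over all arms Gpihbp1 led at 38.5 FPKM, with Plvap at 29.6 FPKM. In the heart Eng led at 62.0, 65.5, 72.5, 81.1 and 41.6 FPKM, followed by Cdh5 at 43.0, 28.2, 23.8, 85.4 and 39.8 FPKM and Gpihbp1 at 24.4, 71.0, 54.6, 40.1 and 30.6 FPKM, with overlap among all 3.

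**Figure D5:**
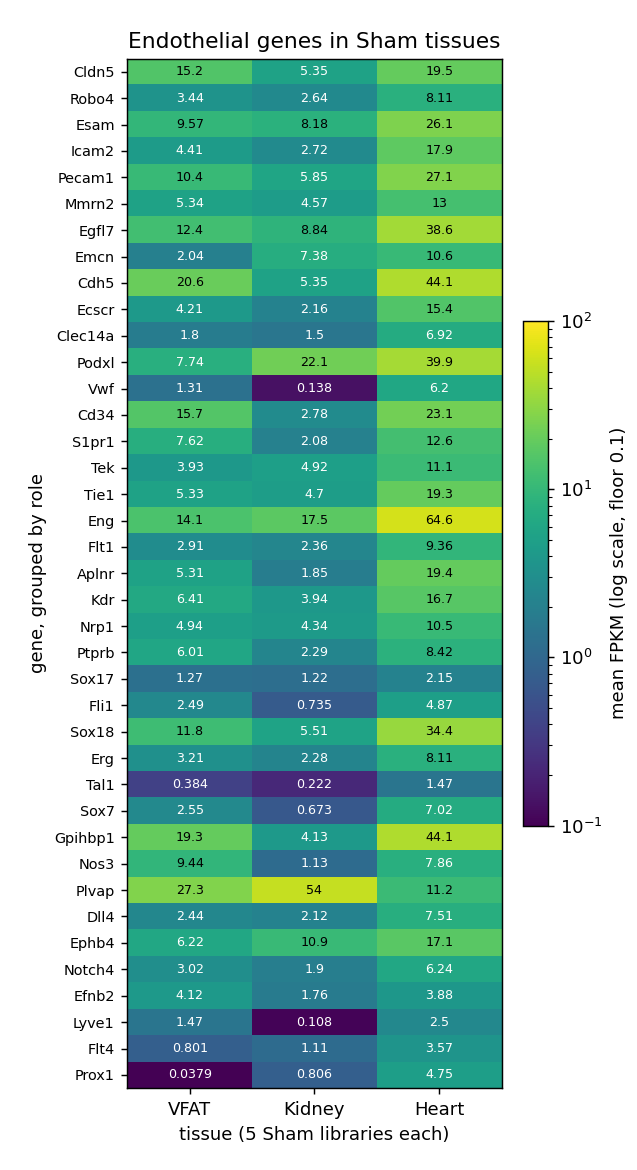
Mean FPKM of each endothelial gene in Sham VFAT, kidney and heart (5 libraries each, colour on a log scale with a floor of 0.1), grouped by role. The heart holds the highest mean for 36 genes, while Plvap peaks in the kidney at 54.0 FPKM and Prox1 is lowest in VFAT at 0.0379 FPKM.

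Tests on counts gave the same order. Kidney against heart had 38 of 39 genes called by edgeR in Sham, 37 lower and Plvap higher, with a median of −1.96, where 30.3% of all genes were higher and 28.3% lower. Plvap differed by 2.39 (SE 0.499, adjusted p = 3.67e-05). The largest differences the other way were Vwf at −5.39 (SE 0.536, adjusted p = 2.34e-13), Lyve1 at −4.52 (SE 0.732, adjusted p = 3.4e-07) and Sox7 at −3.35 (SE 0.357, adjusted p = 2.31e-12), all from edgeR. On the FPKM scale Vwf was at 0.0911, 0.0815, 0.202, 0.152 and 0.162 in the kidney, against 8.14, 4.14, 5.57, 10.6 and 2.54 in the heart, and Lyve1 at 0.0374 to 0.167 FPKM, against 0.761 to 4.12 FPKM. Sox7 was at 0.416 to 0.937 FPKM in the kidney and 3.31 to 12.5 FPKM in the heart. None of these 3 genes overlapped between the tissues. Emcn was the gene not called, at 5.41, 7.16, 9.43, 5.59 and 9.29 FPKM in the kidney, against 10.6, 11.7, 9.14, 14.0 and 7.72 FPKM in the heart (−0.43, SE 0.223, edgeR adjusted p = 0.0884). Without Heart Sham 2 and 3 the counts were 36 lower and Plvap higher, with a median of −2.26.

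VFAT against heart had 31 genes called by edgeR, 30 lower and Plvap higher (1.36, SE 0.487, adjusted p = 0.0139), with a median of −1.39, where 32.8% of all genes were higher and 24.4% lower. The largest were Prox1 at −6.86 (SE 0.836, adjusted p = 2.21e-10), Emcn at −2.33 (SE 0.236, adjusted p = 6.52e-13) and Podxl at −2.32 (SE 0.261, adjusted p = 2.03e-11). Prox1 was at 0.0146 to 0.0831 FPKM in VFAT, against 3.12 to 6.6 FPKM in the heart, and Emcn at 1.27 to 2.69 FPKM, against 7.72 to 14.0 FPKM. With Sham 2 as the only VFAT Sham library, 10 were called, 1 higher and 9 lower, with a median of −0.71.

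VFAT against kidney had 23 genes called by edgeR, 19 higher and 4 lower, with a median of 0.64, where 28.8% of all genes were higher and 22.7% lower. Higher in VFAT were most of all Lyve1 (3.72, SE 0.727, adjusted p = 1.68e-05), Vwf (3.19, SE 0.499, adjusted p = 1.71e-07) and Nos3 (3.02, SE 0.289, adjusted p = 8.39e-14). Lower were Prox1 (−4.37, SE 0.826, adjusted p = 8.59e-06), Emcn (−1.89, SE 0.233, adjusted p = 2.87e-10) and Podxl (−1.54, SE 0.255, adjusted p = 5.51e-07). Nos3 was at 3.4, 18.2, 11.8, 2.23 and 11.6 FPKM in VFAT, against 0.984 to 1.53 FPKM in the kidney, so even VFAT Sham 4 lay above all kidney libraries. With Sham 2 as the only VFAT Sham library, 25 were called, 24 higher and 1 lower (Emcn), with a median of 1.28, so that Ephb4, Podxl and Prox1 lost the call. Averaged over the 5 arms, 37 were called between these tissues, 32 higher and 5 lower. Shares of all genes called in these settings, and in VFAT against heart with Sham 2 alone, are not given here.

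The other vessel genes of the same pathways, in lists apart from the 39, moved in the same fat libraries. Of 32 other endothelial genes tested in VFAT, 11 rose in PNx against Sham and 1 fell, where 4.83% of all genes rose and 8.18% fell. They included Procr, the endothelial receptor of protein C (1.48, SE 0.291, edgeR adjusted p = 0.00218), and the flow-induced factors Klf2 (1.44) and Klf4 (1.19), while Ehd3 fell (−1.34, SE 0.281, adjusted p = 0.00339). Of 28 other angiogenic ligands and receptors, 8 rose and 1 fell. Acvrl1, the BMP9 receptor ALK1 that works with Eng, had the lowest adjusted p (0.97, SE 0.178, edgeR adjusted p = 0.00124), and both angiopoietins, the ligands of Tek, rose (Angpt1 1.63 and Angpt2 1.17). Sema3c, a guidance ligand, fell (−1.44, SE 0.339, edgeR adjusted p = 0.00799). Against Sham 2 alone, and with the epididymal level as a covariate, edgeR called 0 in each of these lists, with 0 at an unadjusted p under 0.05 and medians of 0.23 and 0.14 for the other endothelial genes and 0.13 and 0.19 for the angiogenic genes. Vegfa, the ligand of Kdr and Flt1, measured 0.71 (edgeR adjusted p = 0.0907), and none of 5 other lymphatic genes passed, with 1 at an unadjusted p under 0.05. Such a p was found for 4780 of all 17552 genes in VFAT. In the kidney 2 of 27 angiogenic genes rose (Vegfb 0.82 and Ramp2 0.91) and Bmp6 fell, and of 29 other endothelial genes 3 fell (Cd36, Ehd3 and Nr2f2), where 9.25% of all genes rose and 7.56% fell. With the length index as a covariate, and without PNx 3, 4 and 5 and ControlCells 4 and 5, edgeR called 0 in these kidney lists: 4 and 1 angiogenic genes and 7 and 6 other endothelial genes had an unadjusted p under 0.05. The matching counts over all genes are not given here. None of these lists had a call in the heart by edgeR or voom, with 0 of 28 angiogenic, 7 of 33 other endothelial and 4 of 5 lymphatic genes at an unadjusted p under 0.05, and DESeq2 called 0, 2 and 1 in that order. By edgeR 2387 of all 15091 heart genes had an unadjusted p under 0.05.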

How the data were processed

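RNA of flash-frozen kidney, heart and visceral adipose tissue was sequenced as pairs of 50 base reads, per the labels. The deposited raw counts per gene are the basis of all tests, and the FPKM values that the authors deposited, per the file headers, were used only to compare levels between genes. The submitters' processing notes name the build GRCm38 and the tools HISAT2 2.1.0, Trimmomatic 0.38 and DESeq2 (1.20.0 and 1.20.1) in no stated order. The gene annotation and the use of strand in counting were not given in the sources used here, and reads of overlapping genes cannot be told apart. Of 54232 genes, 54079 had a symbol in GENCODE M21, which also gave exon lengths.

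The second libraries of 2 samples (Kidney Sham 3 and VFAT Scrambled 3) were summed into these samples, leaving 74 samples from 76 libraries. Each tissue was fitted over its 5 arms with edgeR 4.0.16 (TMM scaling, filterByExpr, quasi-likelihood F test, R 4.3.3), with Benjamini-Hochberg adjustment over all genes tested and calls at an adjusted p under 0.05. SE is the fold change divided by the square root of F. Comparisons between tissues came from 1 fit over all 15 groups. The shares of all genes are those of these edgeR fits, and none is given for DESeq2, voom or the other settings. Alternatives were DESeq2 1.42.0, limma 3.58.1 voom with quality weights, other size factors, no filter, a replicate block, a length index (short minus long genes, the lowest and highest 25% of exon lengths) as a covariate, only the compared arms, libraries left out and, added after the data had been seen, VFAT without Sham 1, 3, 4 and 5 or without some Scrambled libraries, kidney differences without PNx 3, 4 and 5 and an epididymal covariate. The scripts were tested on simulated VFAT counts with 100 genes changed 2-fold and 100 changed 4-fold in PNx. Against Sham edgeR recovered 28 and 64 of them, with 4 false calls among 96. DESeq2 recovered 43 and 69, with 37 false calls among 149. Voom recovered 26 and 62, with 5 false calls among 93.

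The 39 genes, the other lists and the choice of genes named were made with earlier results of these data known. Values in every sample are given for up to 6 called genes per direction with the lowest adjusted p in each comparison, for Pecam1, Cdh5, Kdr, Flt1, Vwf, Plvap, Gpihbp1, Lyve1 and Prox1 in PNx against Sham, and for leading genes between tissues. Total counts set the precision of low genes. Within a tissue equal replicate numbers belong to different arms and were not used to pair samples in the main fits. Between tissues, 15 of 73 pairs of the same arm and number deviated together at a correlation over 0.1 (20.5%), and 68 of 292 pairs of different numbers (23.3%). The labels do not say whether such libraries share a mouse, and the fit over 15 groups treats them as independent.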

Additional observations from a re-analysis of the deposited data

Results flagged for a closer look

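Single libraries stood apart for 5 of the 90 groups of 4 or 5 libraries examined over the named genes, and chance alone marks about 1 in 20 groups. Gpihbp1 reached 206.0 CPM in Heart PNx 1 and 116.5 CPM in Kidney PNx 3. Kdr was 46.7 CPM in Kidney Sham 5, Prox1 1.51 CPM in VFAT PNx 3 and Vwf 50.8 CPM in VFAT PNx 5.

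The response to PNx differed between tissues, by edgeR's test of the difference itself, for the named genes that follow. Between kidney and heart Egfl7 differed by 1.11 and S1pr1 by −1.50 on the log2 scale. Between kidney and VFAT the differences were −1.95 for S1pr1, −1.73 for Tek, −1.66 for Sox7, −1.53 for Tal1, −1.23 for Podxl and −1.09 for Mmrn2. Between VFAT and heart they were 2.18 for Cldn5, 1.37 for Dll4, 1.34 for Robo4, 1.32 for Egfl7, 1.11 for Mmrn2 and 0.93 for Ephb4. None of the differences that involve VFAT was called without VFAT Sham 1, 3, 4 and 5, and neither difference between kidney and heart was called without Heart Sham 2 and 3. Of the differences between kidney and VFAT given here, Tal1 alone was called without Kidney PNx 3, 4 and 5, and neither between kidney and heart was.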

How the results depend on the processing

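The counts of called genes moved with the Sham libraries of VFAT, the tool and the arms in the fit. Without VFAT Sham 1, 3, 4 and 5 they were 0 for PNx, NaKtide, Scrambled and ControlCells against Sham and for the differences of the PNx effect that involve VFAT, 1 for NaKtide against Scrambled and 10 for VFAT against heart in Sham. With the epididymal covariate all 4 comparisons with Sham had 0. With only the compared arms in the fit the counts were 1 for VFAT PNx against Sham, 0 for NaKtide and for ControlCells, 2 for Scrambled and 0 for Kidney PNx against Sham. DESeq2 called 6 in Kidney PNx against Sham, 11 in VFAT ControlCells against Sham, 10 in NaKtide against Sham and 1 in NaKtide against Scrambled. Voom called 9 in Kidney PNx against Sham, 14, 12, 3 and 3 in the kidney comparisons with cells, 2 in Heart NaKtide against PNx, 21 in VFAT NaKtide against PNx, 1 in NaKtide against Scrambled, 11 in ControlCells and 19 in Scrambled against Sham, and 4, 20 and 27 in the differences of kidney minus heart, kidney minus VFAT and VFAT minus heart. Without a filter these differences had 0, 5 and 5, and Kidney PNx against Sham 0. In Kidney PNx against Sham the count was 6 with the second libraries separate, 6 with them left out, 0 with the length covariate and 0 without the libraries in doubt, and the last 2 settings gave 1 each in Scrambled against ControlCells. Kidney minus heart had 0 without Heart Sham 2 and 3, and without Kidney PNx 3, 4 and 5 kidney minus heart had 0 and kidney minus VFAT 2. VFAT Scrambled against Sham had 2 without Scrambled 2 and 3 and 1 without Scrambled 1, 2 and 4. Averaging over arms gave 37 for VFAT against kidney. The causes were not tested, and the shares of all genes called under these settings are not given here.

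Leaving out each library gave 6 to 30 for VFAT PNx against Sham, 2 to 20 for NaKtide, 5 to 22 for Scrambled and 0 to 20 for ControlCells, 0 to 9 for Kidney PNx against Sham, 0 to 4 for kidney minus heart, 5 to 21 for kidney minus VFAT, 2 to 23 for VFAT minus heart, 34 to 38 for kidney against heart, 29 to 33 for VFAT against heart and 18 to 25 for VFAT against kidney, and 0 for the 13 comparisons with a count of 0. Shares of all genes called in these fits are not given here. Replicate numbers were not used to pair samples in the main fits. Between arms, libraries of the same number deviated together, at a correlation over 0.1, in 20 of 50 kidney, 18 of 50 heart and 15 of 46 VFAT pairs. That share was not counted for different numbers. The mean correlation was 0.0216, −0.0231 and −0.0205 for the same number in kidney, heart and VFAT. For different numbers it was −0.00342, 0.0161 and 0.00425. With the replicate block VFAT PNx against Sham had 15, Kidney PNx against Sham 2, ControlCells against Sham 2, and kidney minus heart 1.

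The genes that follow changed sign under some setting, all uncalled except S1pr1 in VFAT ControlCells against Sham, which was called at 1.03. In the heart Cdh5 was −0.22 with voom, −0.31 without Sham 2 and 3 and −0.12 to 0.43 without single libraries, Pecam1 −0.09 with voom and −0.06 to 0.38, Gpihbp1 −0.32 to 0.38, Kdr −0.21 to 0.28 and Vwf −0.51 to 0.11. Prox1 there was −0.04 with voom, −0.0035 with DESeq2's size factors, −0.11 with the length covariate, −0.26 without Sham 2 and 3 and −0.11 to 0.20 without single libraries. In the kidney Cdh5 was 0.59 with the length covariate, 0.43 without the libraries in doubt and −0.33 to 0.13 without single libraries, Prox1 0.94, 0.63 and −0.75 to 0.05 in that order, and Vwf 0.0037 with the block, 0.18 with the length covariate, 0.06 with second libraries left out and −0.47 to 0.17 without single libraries. In VFAT, without Sham 1, 3, 4 and 5, Flt1 was −0.07, Kdr −0.04 and Vwf −0.58, and with the epididymal covariate Kdr was −0.11, Vwf −0.71 and S1pr1 in ControlCells against Sham −0.10, where Flt1 and Kdr had measured 0.78 and 0.63. Without single libraries Prox1 there was −1.77 to 0.51 and Vwf −0.04 to 0.55. Over the 92 named genes and comparisons, 372 alternative values lost a call, 7 gained 1 and 1561 kept direction and side.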
